A study of Homo sapiens with 12 samples.

Results

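The cells described here are the high-RNA and the low-RNA cells of wild-type eHAP1, a human haploid line, profiled by LAST-seq. LAST-seq joins a T7 promoter to the poly(A) RNA of a single cell in its well, pools the wells and amplifies the RNA by in vitro transcription, and only the amplified product is reverse-transcribed. Each captured molecule carries a random tag, the unique molecular identifier (UMI). The cells were chosen by total UMIs over all genes: within each of the 2 batches, the 148 cells were ranked and divided into 3 equal parts, and the top part was set against the bottom part. This gave 49 high-RNA cells, 24 of batch 1 and 25 of batch 2, and 48 low-RNA cells, 24 of each batch. The other 50 cells formed the middle of the ranks, and 1 cell of batch 2 with 18022 UMIs was left out, as it held fewer than 40000.

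The wild-type (WT) cells were grown from a subclone of the line without a knockout. After subcloning, the study's haploid cells were kept in medium with 10-Deacetylbaccatin-III, a taxane precursor given so that they remain haploid. For LAST-seq the WT cells were stained with Hoechst and a dead-cell dye, and sorted one per well as live haploid cells in G1 phase. They are therefore 1 clone, and the G1 gate and a narrow cell size removed part of the spread in RNA content that a culture would have. The series further holds 153 eHAP1 cells with a CRISPR-Cas9 knockout (KO) of SCC4, the cohesin loader subunit encoded by MAU2, which were used here only to set values beside those of WT cells. At equal depth, MAU2 had a mean of 1.85 and 1.64 UMIs per WT cell in batches 1 and 2, and of 0.390 and 0.618 per KO cell. The HEK293T wells of the series were not used. All WT cells make up 1 sample, so the high-RNA and the low-RNA cells come from the same 2 pools, and no p-value can be given for any difference between them.

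In a growing cell, total RNA goes up with cell size, and most transcripts are made in proportion, so that their concentration stays close to constant while their copy number goes up. Genes that escape this scaling are known for some histone transcripts, which follow DNA replication, and mitochondrial transcripts are made from the organelle's own genome.

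The total UMIs are given as a description, without a test. Low-RNA cells of batch 1 held between 46288 and 79134 UMIs with a median of 68629, and high-RNA cells between 101399 and 347087 with a median of 123710. In batch 2, low-RNA cells held between 42352 and 129986 UMIs with a median of 118384, and high-RNA cells between 159226 and 926415 with a median of 180472. The medians thus differed by 1.80-fold in batch 1 and by 1.52-fold in batch 2. The cells next to the limits were close to each other: the highest low-RNA cell of batch 2 held 129986 UMIs and the lowest middle cell 130242, while the highest middle cell held 158524 and the lowest high-RNA cell 159226. A low-RNA cell of batch 2 often held more UMIs than a high-RNA cell of batch 1, so high and low are relative to the batch. There were 3 cells far above the rest, with 347087, 649690 and 926415 UMIs, or 3.86, 4.52 and 6.44 times the median of their batch. Sequencing reads per cell were not analysed here, so RNA content, capture and read depth of a well cannot be told apart.

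**Figure D1:**
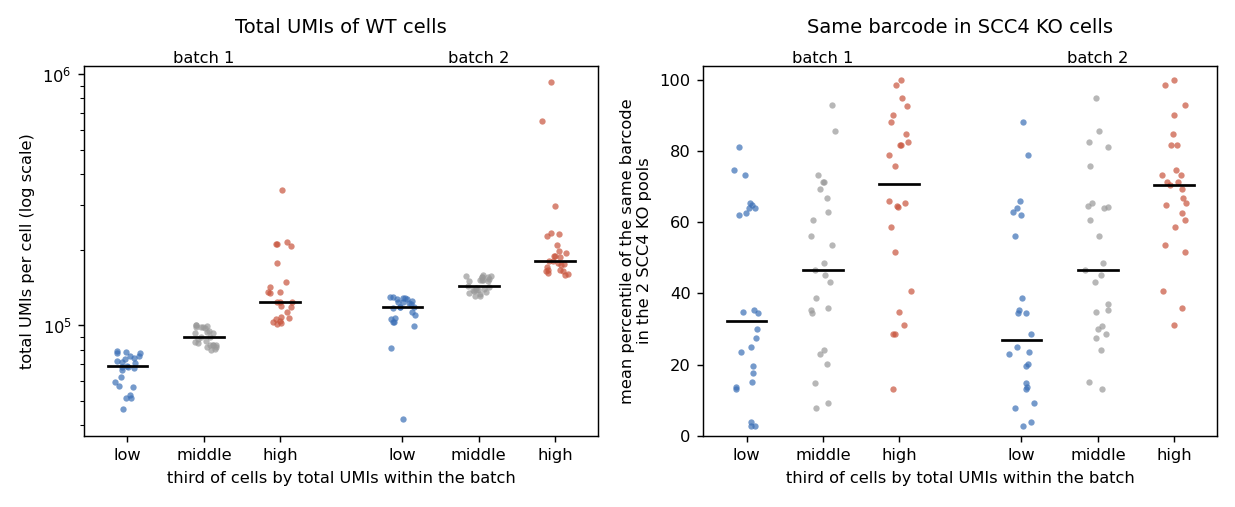
Left, total UMIs of each WT cell (log scale) by batch and by place in the ranks. Right, for each WT cell, the mean percentile in total UMIs of the KO cells that carried the same barcode. Points are cells and bars are medians. The right panel has medians of 32.3, 46.5 and 70.8 for low, middle and high cells of batch 1, and of 26.8, 46.5 and 70.6 for those of batch 2.

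The total UMIs of a well followed its barcode in part across pools that hold different cells, and least between the WT pools. Each well has a barcode of 6 bases in the primer that carries the T7 promoter. Among the deposited cells of the 2 WT and the 2 KO pools, 78 barcodes were seen, 67 of them in all 4 pools. In KO cells, the barcodes of high-RNA WT cells ranked at a median percentile of 70.8 (batch 1) and 70.6 (batch 2), and those of low-RNA WT cells at 32.3 and 26.8. Over shared barcodes, the Spearman correlation of the total UMIs was 0.650 between the KO pools (75 barcodes), 0.263 between the WT pools (70 barcodes), and between 0.367 and 0.568 for the other 4 pairs. The Pearson correlation was -0.022 between the WT pools, and between 0.302 and 0.724 for the other pairs. Of the barcodes shared by the WT pools, 11 were in the high-RNA cells of both and 11 in the low-RNA cells of both. Another 9 were high in one and low in the other, with the left-out cell of batch 2 counted as low. Whether wells of the same barcode also shared a place on the plate is not given in the sources used here.

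The barcodes that stood at the same end in all 4 pools are printed whole, 5′ to 3′, as they are the sequence that differed between the wells of the compared cells. There were 5 that were high in every pool:
barcode high 1: CAGGAA
barcode high 2: AGGCAA
barcode high 3: AACAGC
barcode high 4: ATAGGC
barcode high 5: GTGGAT
There were 6 that were low in every pool:
barcode low 1: GTATCC
barcode low 2: GGTCTA
barcode low 3: TGTTCC
barcode low 4: CATCCA
barcode low 5: CATTGG
barcode low 6: CTCGTA
The well of barcode high 1 held 210121 and 297444 UMIs in WT batches 1 and 2, and 174807 and 320432 in KO batches 1 and 2. The well of barcode low 1 held 57007 and 80957 UMIs in WT cells, and 44979 and 103380 in KO cells. All barcodes have 3 G or C bases, so base composition differs only in which bases they are. Of the high barcodes, 3 have no T, and each low barcode has at least 1, while 13 of all 78 barcodes have no T. Barcodes seen in only 3 pools are not in these lists. Of these, GGAGAA, without a T, was low in each of its 3 pools, and GAGAGA, also without a T, was high in each. Over all 78 barcodes, however, the number of T bases had a Spearman correlation of -0.17 with the mean percentile over pools.

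To compare composition at an equal depth, every cell was thinned without replacement to 42352 UMIs, the lowest total among the cells used. A gene was counted as higher or lower when its mean thinned UMIs per cell in high-RNA cells were at least 1.5 times higher or lower than in low-RNA cells in both batches. Of the 5245 genes that averaged 1 thinned UMI or more, 6 were higher (0.114%) and 15 were lower (0.286%), while 28 (0.534%) passed 1.5-fold in opposite ways in the 2 batches. Within batch 1 alone, 189 genes were higher (3.6%) and 185 lower (3.53%), and within batch 2 148 were higher (2.82%) and 164 lower (3.13%). More genes therefore went in opposite ways than in the same way, and the counts above and below were close to each other within a batch. The Spearman correlation between the log2 ratios of the batches was -0.022 over the 5245 genes, 0.046 over the 543 genes at 10 or more thinned UMIs on average, and 0.169 over the 73 at 50 or more. Genes are not independent replicates, and both ratios carry counting noise.

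Among abundant transcripts, the share of UMIs was nearly the same in high-RNA and low-RNA cells. Of the 73 genes at 50 or more thinned UMIs on average, 98.6% differed by less than 1.1-fold over the pooled batches, and so did 91.7% of the 543 genes at 10 or more. The ratio showed little rank correlation with the level of a gene or with the length and GC content of its longest transcript. Over the genes tested, the Spearman correlation of the log2 ratio was between -0.046 and 0.041 with each of the 3 in either batch.

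**Figure D2:**
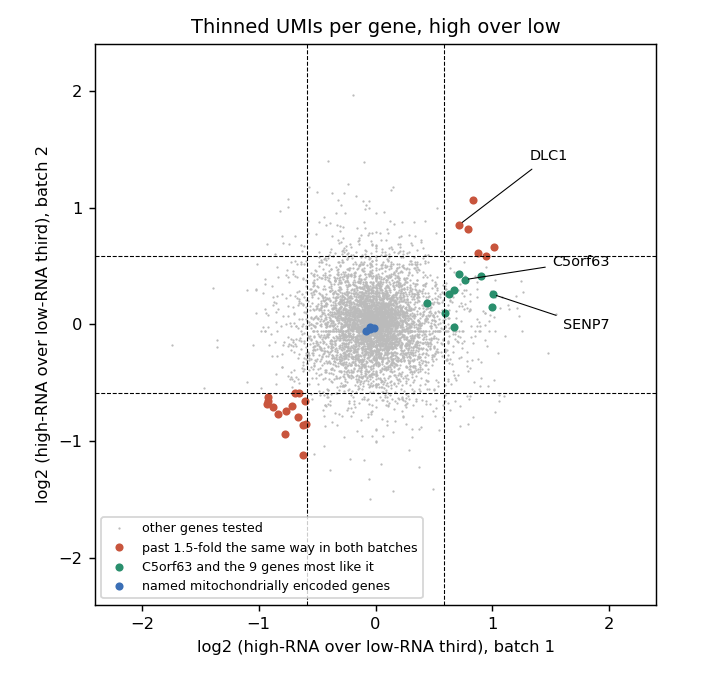
Each of the 5245 genes by its log2 ratio of mean thinned UMIs, high-RNA over low-RNA cells, in batch 1 (horizontal) and batch 2 (vertical). Dashed lines mark 1.5-fold. The cloud is round, with 6 genes in the upper right corner and 15 in the lower left, and the genes like C5orf63 lie to the right.

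The 21 genes past 1.5-fold had low counts, and most did not pass it with other UMIs of the same cells. Only 4 of the 3016 genes at 2 or more UMIs on average passed (0.133%). In another random draw of 42352 UMIs per cell, 1 of the 6 higher genes and 1 of the 15 lower genes passed again, DLC1 and ITPRIPL1, and 14 genes were higher and 14 lower. With all UMIs of a cell kept and scaled to its total, 1 gene was higher, DLC1, none was lower, and 3 passed in opposite ways, of 5185 genes.

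DLC1, known as a tumour suppressor gene, was the only gene higher by 1.5-fold in both batches under all 3 ways of counting. In batch 1, thinned UMIs per cell ranged from 1 to 13 with a median of 6 in low-RNA cells, and from 2 to 51 with a median of 7.5 in high-RNA cells. In batch 2 the range was from 2 to 18 with a median of 6.5 in low-RNA cells, and from 0 to 122 with a median of 8 in high-RNA cells. The next highest high-RNA cells held 28 and 20 UMIs, so the ranges overlap save for a few cells. The ratio of the means was 1.65 (95% counting interval 1.34 to 2.03) in batch 1 and 1.81 (1.49 to 2.20) in batch 2. Without the highest cell on each side it was 1.43 and 1.24, under 1.5-fold in both. Middle cells had means of 6.48 and 6.56 UMIs, against 6.25 and 6.92 in low-RNA cells. The same contrast in KO cells gave 1.33 and 1.0.

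The lower genes at 2 or more UMIs on average were NCBP1, COPS3 and ANAPC7. NCBP1, the large subunit of the nuclear cap-binding complex, had a mean of 3.0 UMIs in low-RNA and 1.62 in high-RNA cells of batch 1, and of 2.29 and 1.4 in batch 2. Its ratios were 0.542 (0.357 to 0.811) and 0.611 (0.388 to 0.950). COPS3, a subunit of the COP9 signalosome, had ratios of 0.605 and 0.613, and ANAPC7, a subunit of the anaphase-promoting complex, of 0.627 and 0.573. With all UMIs kept, these ratios were closer to 1, at 0.644 and 0.886 for NCBP1, 0.819 and 0.826 for COPS3, and 0.785 and 0.857 for ANAPC7. Leaving out mitochondrially encoded genes before ranking and thinning also meant a new random draw, of 32809 UMIs per cell. The log2 ratio over the pooled batches was then -0.22 for NCBP1, against -0.81 with them and -0.48 in another draw with them. For COPS3 and ANAPC7 it was -0.06 and -0.13, against -0.71 and -0.74 with them, and -0.47 and -0.12 in the other draw. In KO cells, their ratios were between 0.929 and 1.44. Per cell, the thinned UMIs of NCBP1 ranged from 0 to 14 in low-RNA and from 0 to 4 in high-RNA cells of batch 1, so the cells overlapped.

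The other 17 genes had means between 1 and 2 UMIs per cell. Higher were HERC1, a large ubiquitin ligase, B3GAT3, which builds the linker of glycosaminoglycan chains, NIBAN1, C21orf58 and TTC39C. HERC1 rested on 1 high-RNA cell of batch 1 with 17 UMIs, where the next had 4, and its ratio there was 1.80 with and 1.37 without it. Lower were UGDH, which makes UDP-glucuronate, the riboflavin kinase RFK, NMNAT3 of NAD synthesis, the deacetylase HDAC6, DPM3 of dolichol-mannose synthesis, ARHGAP21, RTF2, SERINC3, LCLAT1, ZNRD2, ITPRIPL1 and HBA1, whose reads cannot be split with certainty from its near-identical copy HBA2. With all UMIs kept, DPM3 had the smallest ratio of the lower genes in batch 2, 0.565, and 0.775 in batch 1. In KO cells, 2 of the 6 higher genes were above 1 in both batches and 4 of the 15 lower genes below 1, beside 22.8% and 24.1% of all genes tested. For KO cells ranked in the same way, 15 of 5318 genes were higher (0.282%), 13 lower (0.244%) and 15 went in opposite ways (0.282%). TTC39C was the one gene of the 21 that also passed 1.5-fold in both KO batches, with ratios of 1.83 and 2.75. Just inside the limit were C21orf58, at 1.502-fold in its smaller batch, and LCLAT1, at 1.501-fold, and just outside were LINC02227, at 1.487-fold, and TM7SF3, at 1.489-fold.

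Transcripts of the mitochondrial genome had a slightly lower share in high-RNA cells. The 15 mitochondrially encoded genes made up 20.3% of UMIs in low-RNA, 19.9% in middle and 19.9% in high-RNA cells of batch 1, and 20.8%, 20.7% and 20.3% in batch 2. The ratio of high to low was 0.980 (0.974 to 0.986) and 0.978 (0.972 to 0.984). Single cells overlapped widely, from 19.6% to 21.7% in low-RNA and 18.8% to 20.6% in high-RNA cells of batch 1, and from 19.9% to 22.5% and 18.02% to 21.3% in batch 2. Of the 15 genes, 9 were lower and 1 was higher in both batches, beside 1268 and 1205 of all 5245 genes. None passed 1.5-fold in both batches, beside 0.4% of all genes.

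The largest loss in share was that of MT-CO3, a subunit of cytochrome c oxidase (chromosome M, 9207 to 9990, GRCh38). It had a mean of 2115 thinned UMIs per cell in low-RNA, 2001 in middle and 1999 in high-RNA cells of batch 1. In batch 2 the means were 2129, 2115 and 2043. Single cells held between 1897 and 2325 UMIs in low-RNA and between 1730 and 2170 in high-RNA cells of batch 1, and between 1928 and 2320 and between 1599 and 2233 in batch 2. The ratios were 0.945 (0.934 to 0.957) and 0.960 (0.948 to 0.972). The next losses were those of MTATP6P1, a nuclear pseudogene that is a near-identical copy of mitochondrial sequence so that its reads cannot be assigned with certainty, with ratios of 0.978 and 0.947, and of the complex I subunits MT-ND3, with 0.968 and 0.974, MT-ND4, with 0.993 and 0.978, and MT-ND6, with 0.970 and 0.986. In KO cells, MT-CO3 had ratios of 0.978 and 0.960.

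For such abundant genes, the tag itself limits the count. The UMI has 8 bases, which allows 65536 tags, and 1 high-RNA cell held 34441 UMIs of MT-CO3, and molecules that drew the same tag are counted once. Corrected for tags drawn more than once, and without thinning, the ratio of MT-CO3 was 0.967 in batch 1 and 0.988 in batch 2, against 0.944 and 0.951 uncorrected. For the 15 genes together it was 0.993 and 0.990, against 0.983 and 0.975. The correction assumes that all tags are equally likely.

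Cytosolic ribosomal protein genes had a slightly higher share in high-RNA cells. They made up 9.08% of UMIs in low-RNA, 9.12% in middle and 9.18% in high-RNA cells of batch 1, and 9.20%, 9.26% and 9.39% in batch 2. The ratios were 1.010 (1.001 to 1.019) and 1.020 (1.011 to 1.030). Of the 78 tested, 35 were higher and 8 lower in both batches, beside 1205 and 1268 of all 5245 genes. None passed 1.5-fold in both batches, beside 0.4% of all genes. The most abundant, RPS29 and RPL39, had ratios of 1.008 and 1.012, and of 0.953 and 0.995. Their shares are not independent of the mitochondrial one, as all shares of a cell add up to 1. With mitochondrially encoded genes left out of the totals, the log2 ratio over the pooled batches was 0.01, against 0.02 with them.

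Most other gene groups differed by a few percent or went in opposite ways in the batches. Over the 23 other lists of genes for growth, translation, energy metabolism, stress and the cell cycle, the share was higher in high-RNA cells in both batches for 10, lower in both for 3 and mixed for 10. For the 19 of them with at least 0.1% of UMIs, the ratio lay between 0.895 and 1.059 in a batch. Genes of cohesin, its loader and regulators, which form chromatin loops and hold sister chromatids together, had the highest ratios of these. They were 1.059 (0.977 to 1.147) in batch 1, 1.058 (0.977 to 1.146) in batch 2 and 1.058 (1.0002 to 1.119) over the pooled batches. The list made up 0.117% of UMIs in low-RNA cells. In KO cells, its ratios were below 1, at 0.909 and 0.977. The replication-dependent histones, a list with a far smaller share, had higher ratios still in WT cells and are given with the cell cycle lists. None of the 453 members tested passed 1.5-fold in both batches, beside 0.4% of all genes. Cholesterol synthesis genes, with 0.138% of UMIs in low-RNA cells, had the lowest ratio, 0.895 (0.830 to 0.965) in batch 1, but 1.036 (0.961 to 1.117) in batch 2. Ribosome biogenesis genes were at 0.945 and 1.029, translation initiation and elongation factors at 1.039 and 1.002, and TRiC and heat shock chaperones at 1.002 and 1.047, each with an interval that did not hold 1 in a single batch. Glycolysis genes were at 1.019 and 1.007, nuclear-encoded respiratory chain genes at 0.998 and 1.008, proteasome genes at 1.009 and 0.995, and splicing factors at 1.011 and 1.011. Genes of nucleotide synthesis, with the purine enzyme PAICS as the most abundant, were at 1.006 and 1.038.

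The cell cycle lists bear on the G1 gate. S phase and DNA replication genes had ratios of 0.997 (0.949 to 1.047) and 1.022 (0.974 to 1.073), and G2 and mitosis genes of 0.971 (0.914 to 1.031) and 0.975 (0.918 to 1.036). MKI67, a proliferation marker, had a mean of 6.42 UMIs in low-RNA and 6.63 in high-RNA cells of batch 1, and of 6.75 and 6.32 in batch 2. The G1 cyclins and CDK inhibitors were at 1.021 and 1.056. Replication-dependent histones, few of which are polyadenylated, had the highest ratios of any list, 1.143 (0.962 to 1.359) and 1.184 (1.001 to 1.401), but made up only 0.025% of UMIs in low-RNA and 0.029% in high-RNA cells. Nearly all of this was H4C3, with means of 8.96 and 10.8 UMIs in low-RNA and high-RNA cells of batch 1 and of 9.75 and 11.3 in batch 2. With all UMIs kept, its ratios were 1.05 and 1.08. Markers of other cells were at or near the floor: 12 of 14 blood cell markers had no UMI in any WT cell, and the exceptions were HBA1 and HBA2. Kidney lineage markers had means of at most 0.732 UMIs per cell and epithelial markers of at most 0.485.

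**Figure D3:**
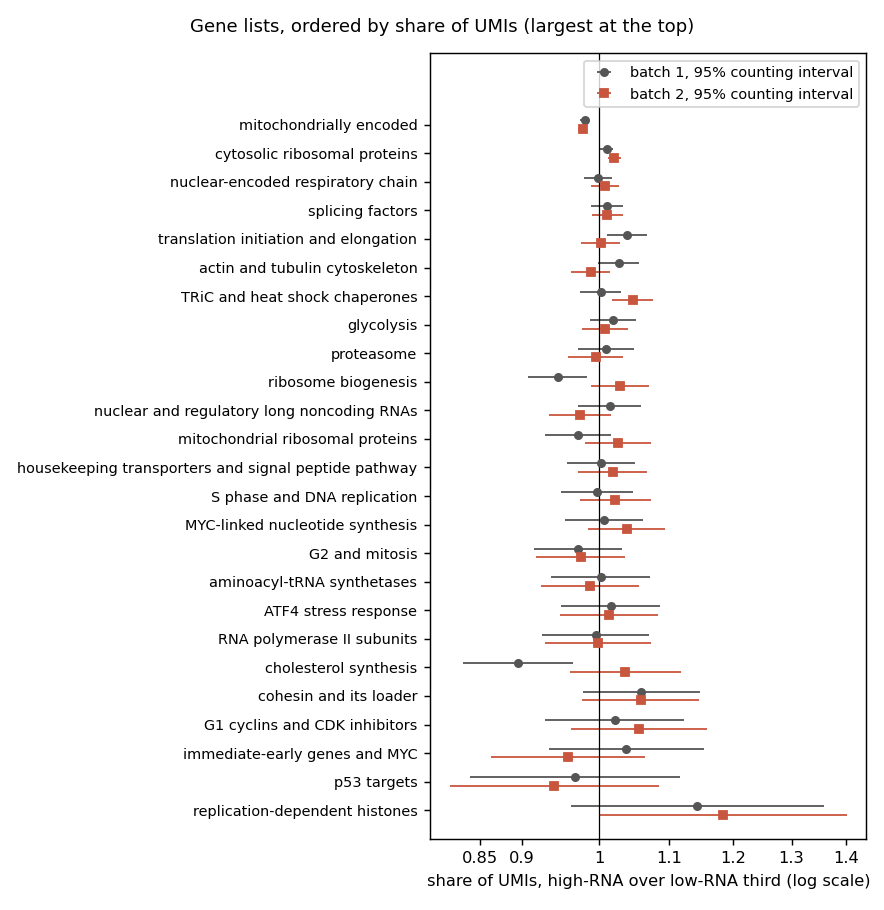
Share of thinned UMIs of 25 gene lists in high-RNA over low-RNA cells (log scale), in batch 1 (circles) and batch 2 (squares), with exact 95% counting intervals. Mitochondrially encoded genes lie below 1 in both batches, at 0.980 and 0.978, and cytosolic ribosomal protein genes above it, at 1.010 and 1.020.

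The largest gains in share were those of C5orf63, SENP7, the processed pseudogene ENSG00000256399, the ubiquitin hydrolase UCHL1 and CARF, a transcription factor. C5orf63, a gene of little known function (chromosome 5, 127045235 to 127073506), had 12 to 83 thinned UMIs per low-RNA cell of batch 1 with a median of 27, and 15 to 131 per high-RNA cell with a median of 47.5. In batch 2, the cells held 12 to 87 with a median of 30.5, and 11 to 125 with a median of 40. The high-RNA cells thus reached higher values, and the ranges overlapped over most of their length. The ratio of the means was 1.70 (1.55 to 1.86) in batch 1 and 1.3 (1.2 to 1.42) in batch 2, short of 1.5-fold in the latter. With all UMIs kept it was 1.68 and 1.3. In KO cells, thinned, it was 1.99 and 1.70, which was not computed without the highest cell. SENP7, a SUMO protease, had ratios of 2.01 and 1.19, and UCHL1, at a mean of 259 UMIs, of 1.04 and 1.02.

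C5orf63 varied together with other transcripts from cell to cell. Likeness was measured by the Spearman correlation of thinned UMIs with those of C5orf63 over the 73 cells of batch 1 and the 74 of batch 2, for 3015 genes that averaged 2 or more. There were 9 genes with a correlation of at least 0.5 in both batches. They were SENP7, at 0.860 and 0.898, ENSG00000256399, at 0.871 and 0.821, BCYRN1, a cytoplasmic noncoding RNA derived from an Alu element, at 0.809 and 0.843, the neuronal RNA-binding protein gene ELAVL3, PPP6R3, ENSG00000259001, BCAT2, ZNF3 and YIPF4. The next gene, CARF, reached 0.663 in batch 2 but 0.296 in batch 1. In KO cells, BCYRN1 had a correlation with C5orf63 of 0.805 and 0.867, and SENP7 of 0.724 and 0.690. ELAVL3 was at 0.608 and 0.594 there, and ZNF3 at 0.571 and 0.549. Others fell below 0.5 in a KO batch: PPP6R3 was at 0.379 and 0.647, YIPF4 at 0.507 and 0.366, and BCAT2 at 0.596 and 0.016. ENSG00000256399 and ENSG00000259001 have no value in KO cells. These genes were picked for their values and get no test.

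The 10 transcripts together made up between 0.123% and 0.937% of the UMIs of a WT cell in batch 1 and between 0.120% and 0.871% in batch 2. In batch 1 the median was 0.227% in low-RNA, 0.255% in middle and 0.393% in high-RNA cells. In batch 2 it was 0.241%, 0.262% and 0.302%. C5orf63 was picked for its gain in share, and the other 9 for their likeness to it over these same cells. The choice thus favours a higher share in high-RNA cells, and neither these medians nor the ratios below are separate support. Over all cells of a batch, the Spearman correlation of the share with total UMIs was 0.385 in batch 1 and 0.139 in batch 2. With all UMIs kept, the 10 genes had ratios between 1.61 and 2.05 in batch 1 and between 1.19 and 1.34 in batch 2. In KO cells of batch 1, for the 9 genes counted there, the median share was 0.170% in low-RNA and 0.236% in high-RNA cells. The highest of these high-RNA cells held 3.33%. Between pools, the shares of these genes in cells with the same barcode had a Spearman correlation between -0.19 and 0.11. A link to the well was not tested. C5orf63 shares no stretch of 25 bases with any transcript of the other 9, while 6 of the 45 pairs share one, among BCAT2, BCYRN1, SENP7, YIPF4 and ZNF3. How often pairs of other genes share such a stretch was not counted, so this is not shown to be particular to the set.

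**Figure D4:**
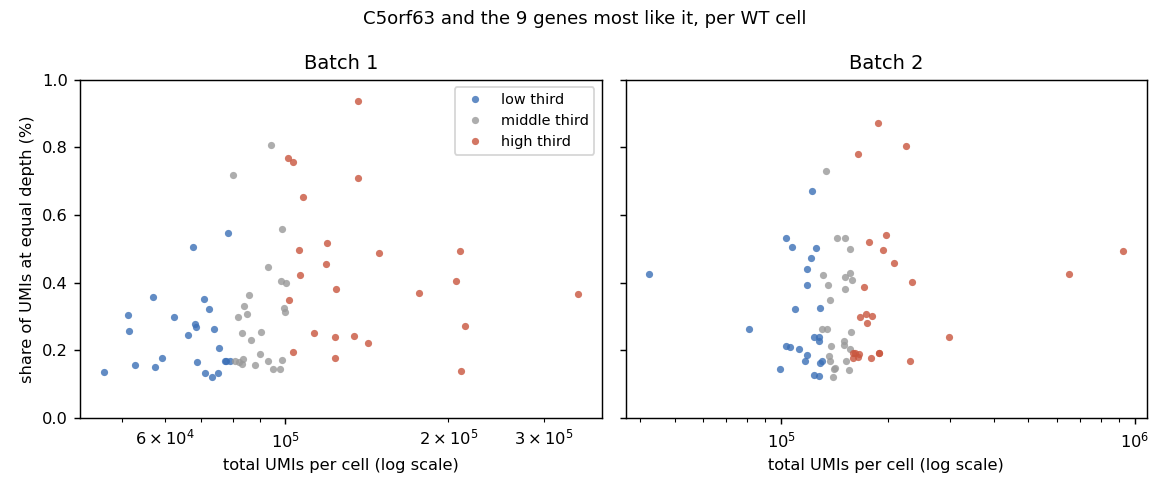
Share of thinned UMIs (%) taken by C5orf63 and the 9 genes most like it against total UMIs (log scale), for each WT cell of batch 1 (left) and batch 2 (right). In batch 1 the medians are 0.227% in low-RNA and 0.393% in high-RNA cells.

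More genes were seen in high-RNA cells at the same number of UMIs. At 42352 UMIs, 7018 ± 83 genes (SD over 24 cells) were detected in low-RNA, 7119 ± 63 (25 cells) in middle and 7187 ± 79 (24 cells) in high-RNA cells of batch 1. In batch 2, the numbers were 6757 ± 122 (24 cells), 6821 ± 53 (25 cells) and 6901 ± 79 (25 cells). The means differed by 169 genes, or 2.4%, in batch 1 and by 145 genes, or 2.14%, in batch 2. Of the high-RNA cells, all 24 of batch 1 and 24 of 25 of batch 2 were above the median of low-RNA cells, and 15 and 5 were above every low-RNA cell. Over all cells of a batch, the Spearman correlation with total UMIs was 0.704 (73 cells) and 0.563 (74 cells). Since the total chose the cells and set how much was thinned away, this remains a description.

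In WT cells, most of the additional genes were rare transcripts, and they were genes seen once. Genes with a mean between 0.1 and 1 UMI made up 92.2 and 102 of the difference, and those under 0.1 made up 23.2 and 6.45. Those with a mean from 1 to 5 made up 52.4 and 35.6, and those with a mean of at least 5 only 0.792 and 0.628. When at least 2 UMIs were required, the difference was 4.83 genes in batch 1 and -1.06 in batch 2. In KO cells the difference was 161 genes in batch 1 and 45.9 in batch 2, and 78.4 and -27.0 when at least 2 UMIs were required. The Fano factor, the variance of the thinned UMIs over their mean across cells, had a median over 3016 genes of 1.08 in low-RNA and 1.05 in high-RNA cells of batch 1, and of 1.08 and 1.04 in batch 2, where sampling alone would give values near 1. The 50 most abundant genes of a cell took 35.4% of UMIs in low-RNA and 35.0% in high-RNA cells of batch 1, and 36.2% and 35.6% in batch 2.

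**Figure D5:**
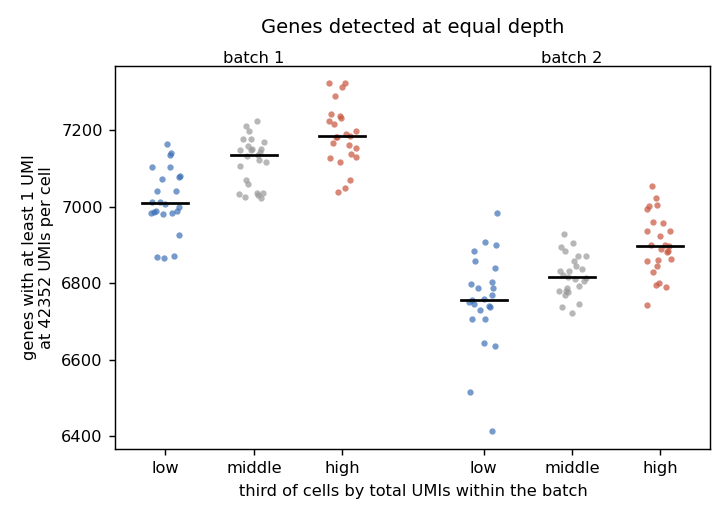
Genes with at least 1 UMI at 42352 UMIs per cell, for each WT cell by batch and place in the ranks. Points are cells and bars are medians, and the vertical axis does not start at 0. Low-RNA and high-RNA cells have means of 7018 and 7187 in batch 1 and of 6757 and 6901 in batch 2.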

How the data were processed

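The authors deposited UMI counts per gene and cell, as whole numbers. They demultiplexed reads with bcl2fastq 2.20, aligned them to GRCh38, counted reads in exons by GENCODE release 33 and collapsed UMIs. They removed wells with few exon reads or low exon mapping, and batch effects by ComBat-seq for later steps; whether the deposited counts precede that step is not given in the sources used here. Wells were sorted singly, and no doublet caller was run. Names and coordinates came from GENCODE release 44, which matched 99.6% of 21561 identifiers.

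Totals and ranks of cells, thinning (1 seeded draw) and ratios were computed in Python 3.11.15 with numpy 2.4.6, pandas 2.3.3 and scipy 1.17.1, and were tested on simulated data. Ratios for calls had 0.5 UMI added to each sum. Ratio intervals are exact Clopper-Pearson intervals at 95% given the summed UMIs, and cover counting error only. Named genes were the up to 12 largest rises and 12 largest falls past 1.5-fold in both batches with a mean of at least 2 UMIs, the 5 largest gains and losses in share, and the 2 most abundant members of each list, of which those that a statement rests on are given. Genes past 1.5-fold with lower means, the genes next to the limit and the genes like C5orf63 were named after their values were seen. Cells and gene lists were chosen with earlier results of these data known. The tables hold no spike-in rows, so the planned spike-in comparison was not made.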

Additional observations from a re-analysis of the deposited data

How the results depend on the processing

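No paired analysis was possible because both sets of cells belong to 1 sample and no test was made. Counts of genes past 1.5-fold depended most on the choices. With all UMIs kept they were 1 higher and 0 lower, with another random draw 14 higher, 15 and 24 with ranks cut into 4 parts, with mitochondrially encoded genes left out 12 higher, with no minimum level 973 and 786, with a mean of at least 5 UMIs 1 and 0, at 2-fold 0 and 0, in batch 1 alone 189 and 185, in batch 2 alone 148 and 164, and over pooled batches 31 and 46. With cells under 40000 UMIs left out first, 5 of the 6 higher and 14 of the 15 lower genes remained, and without the 3 cells above 2.5 times the median 5 and 13. Far fewer remained with ranks cut into 4 parts (3 and 6), with mitochondrially encoded genes left out (1 and 0), with another draw (1 and 1) and with all UMIs kept (1 and 0). The log2 ratio of the mitochondrially encoded share (-0.030) was -0.038 with 4 parts and -0.023 without those 3 cells. The difference in detected genes (157) was 2156 without thinning, 182 with 4 parts, 121 without mitochondrially encoded genes and 1.88 with at least 2 UMIs. The share of ribosomal protein genes stayed above 1 under each alternative run.

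Chosen after seeing the data, ranks formed among cells of at least 80000 UMIs, thinned to 80048, gave 22 genes higher, with 1 higher and 0 lower of those reported, and a mitochondrially encoded log2 ratio of -0.017. Correction for repeated tags gave 1 higher, 0 lower and a log2 ratio of -0.012. Leaving out the highest cell of each gene gave 7 higher and 18 lower, of which 3 and 12 were among those reported. Of single genes, MT-ND6 changed sign to a log2 ratio of 0.0012 with another draw and 0.0027 among cells of at least 80000 UMIs, and UCHL1 to -0.00088 without mitochondrially encoded genes. The cause of these changes was not tested. Keeping the original ranks with cells of at least 80000 UMIs gave no value, as 0 low-RNA cells of batch 1 reached it. Totals with spike-in UMIs were not run, as the tables hold no spike-in rows. Depth limits genes of few UMIs: a mean of 1 UMI amounts to 24 UMIs over the 24 low-RNA cells of a batch.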
